A study of Homo sapiens with 6 samples.

Results

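The genes described here make, import, sense and export cholesterol. They are 34 named genes of the sterol pathway, taken by symbol from the 65198 gene rows of the table through GENCODE 29, and 33 of them reached the mean of 1 FPKM at which genes were tested. FPKM is a fragment count scaled by the length of the gene model and by the size of the library, so levels of different genes can be set side by side. ABCG1 stayed under that mean and was not tested. ABCA1 was tested, but passed this filter only through its level in shHOTAIR.

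Cells build cholesterol from acetyl-CoA through mevalonate, farnesyl diphosphate, squalene and lanosterol. When membranes of the endoplasmic reticulum run low in sterol, the escort protein SCAP carries the transcription factor SREBP2, the product of SREBF2, to the Golgi, where it is cut and released to switch on genes of synthesis and uptake. INSIG proteins hold SCAP back when sterol is plentiful, and oxysterols then activate the liver X receptors, which drive cholesterol efflux genes such as ABCA1.

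Poly(A) RNA was sequenced from a pair of derivatives of MDA-MB-231, a line of basal-like adenocarcinoma of the human breast. The Tet-shHOTAIR derivative (shHOTAIR) carries a tetracycline-inducible hairpin against the long non-coding RNA HOTAIR, and the Tet-shCtrl derivative (shCtrl) carries an inducible hairpin of scrambled sequence. Both were kept in medium with fetal bovine serum and in 1 µg/ml doxycycline for 96 h, with 3 repeats each that the submitters call independent and biological. The labels name 1 derivative per group, without saying whether it is a clone or a pool. P-values therefore compare repeats of one derivative with repeats of the other, and hairpin and derivative cannot be told apart.

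The target itself was at the limit of detection: HOTAIR was listed at 0, 0 and 0.0113 FPKM in shHOTAIR 1, 2 and 3, and at 0, 0.0128 and 0.0132 FPKM in shCtrl 1, 2 and 3. Its knockdown could therefore not be checked here. The line showed VIM between 361 and 411 FPKM in shHOTAIR and between 906 and 977 FPKM in shCtrl, with CD44, KRT8 and KRT18 above 130 FPKM in every library and CDH1 and EPCAM at or below 0.114 FPKM. KRT8 averaged 241 FPKM in shHOTAIR and 141 FPKM in shCtrl (limma adjusted p = 0.0127). KRT18 averaged 232 FPKM in shHOTAIR and 150 FPKM in shCtrl (limma adjusted p = 0.00706), while CD44 did not pass (limma adjusted p = 0.945). The summed level of 3 hepatocyte markers (ALB, APOA1 and CYP7A1) was at most 0.84 FPKM in shHOTAIR and 0.52 FPKM in shCtrl. That of 3 fibroblast markers was 3.68 to 4.17 FPKM in shHOTAIR and 1.3 to 2.17 FPKM in shCtrl, most of it COL1A1, and its part in the results was not tested. The numbers of fragments were not given. The FPKM worth of 1 fragment was read from the spacing of low values, relative to shCtrl 1. It was 0.595 to 0.717 in shHOTAIR and 0.812 to 1 in shCtrl. If FPKM was scaled by all fragments of a library, shHOTAIR was the more deeply sequenced group, but the scaling used is not stated. Summed FPKM of all genes was 1620978 to 1820768 in shHOTAIR and 2224150 to 2569505 in shCtrl. Mitochondrial tRNA genes held much of it, at 650381 to 831059 in shHOTAIR and 1221583 to 1558382 in shCtrl, and protein-coding genes held 735041 to 769410 in shHOTAIR and 770127 to 794678 in shCtrl. The part of this difference in make-up in the results was tested only as far as the scaling on protein-coding sums given with the counts.

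Genes of cholesterol synthesis were broadly lower in shHOTAIR. Of 33 tested genes of the pathway, 18 were lower and 1 was higher at a limma adjusted p under 0.05, against a background of 12.4% lower and 11.5% higher among all 15934 genes tested (1829 higher and 1968 lower). With libraries scaled to one protein-coding sum, a setting chosen after seeing the data, all genes split into 2221 higher and 1475 lower, and 16 of the 33 were lower. The 18 lower genes are 54.5% of the 33. In 21 of the 33 all 3 shHOTAIR values lay below all 3 shCtrl values, where 23.2% of all tested genes did so, and in 2 they lay above, where 19.9% did so. The median log2 change was -0.50 for the 33 genes and -0.027 for all genes tested. The split by step was uneven: 14 of 20 synthesis genes were lower and none was higher, while 4 of 13 tested genes of sensing, uptake, esterification and efflux were lower and 1, ABCA1, was higher.

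**Figure D1:**
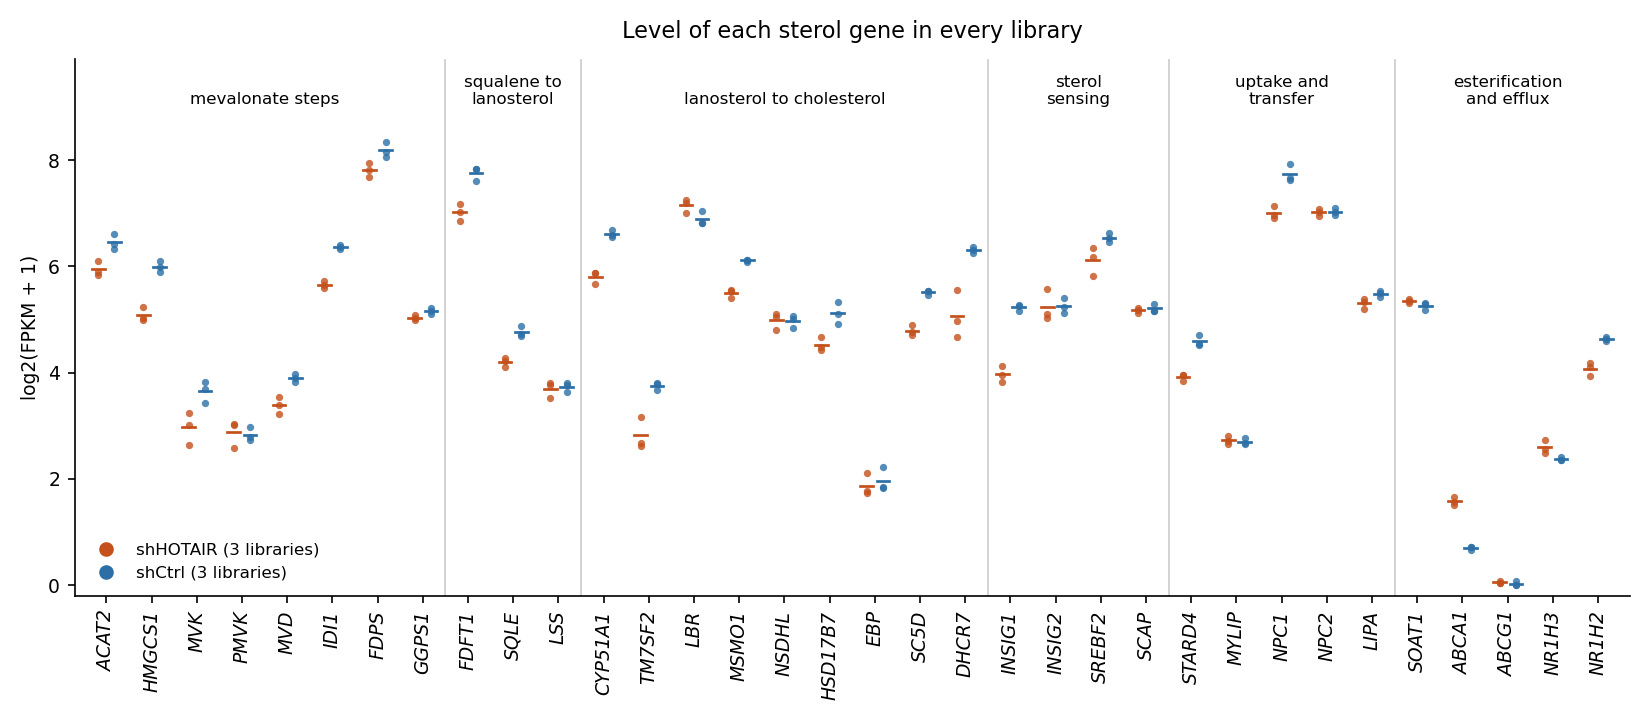
Level of each of the 34 sterol genes as log2(FPKM + 1) on the vertical axis, with shHOTAIR libraries in orange to the left of shCtrl libraries in blue and a line at each group mean (n = 3 per group). Most synthesis genes sit lower in shHOTAIR, ABCA1 sits higher, and ABCG1 is near 0 in both groups.

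The mevalonate steps held 6 lower genes of 8. HMGCS1, the cytosolic synthase that makes HMG-CoA, was at 30.9, 36.8 and 31.7 FPKM in shHOTAIR 1, 2 and 3, and at 67.2, 62.8 and 58.8 FPKM in shCtrl 1, 2 and 3. The shHOTAIR mean was 52.7% of the shCtrl mean, and the groups were far apart (log2 change -0.91, SE 0.0886, limma adjusted p = 0.00225). ACAT2, the cytosolic thiolase that starts the route, was at 56.2, 67.4 and 58.5 FPKM in shHOTAIR and 79.7, 85.1 and 97.1 FPKM in shCtrl (log2 change -0.52, limma adjusted p = 0.0193). ACAT2 shares its locus on the opposite strand with TCP1, which is more abundant, at 365 FPKM in shHOTAIR and 408 FPKM in shCtrl, and whether fragments were assigned by strand is not given. The ACAT2 call was lost without shHOTAIR 1, shHOTAIR 3, shCtrl 2 or shCtrl 3, with limma adjusted p of 0.0515 to 0.0633.

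Of the kinases that act on mevalonate (MVK) and on its phosphate (PMVK), MVK fell and PMVK did not pass the test. MVK was at 5.25, 8.46 and 7.13 FPKM in shHOTAIR and 11.9, 9.80 and 13.1 FPKM in shCtrl, close but not overlapping (log2 change -0.68, SE 0.182, limma adjusted p = 0.0469). PMVK was at 5.02, 7.2 and 7.12 FPKM in shHOTAIR and 5.61, 5.93 and 6.86 FPKM in shCtrl, and the groups overlapped (log2 change 0.051, 95% interval -0.32 to 0.42). Leaving out shHOTAIR 1, shHOTAIR 3 or any shCtrl library ended the MVK call, with limma adjusted p of 0.0614 to 0.134. MMAB, a cobalamin enzyme gene that overlaps MVK on the opposite strand, averaged 10.99 FPKM in shHOTAIR and 19.3 FPKM in shCtrl (log2 change -0.76, limma adjusted p = 0.0038). Their annotated spans overlap, so fragments of this pair may be shared.

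MVD, the decarboxylase that makes isopentenyl diphosphate, was at 8.38, 9.55 and 10.6 FPKM in shHOTAIR and 13.8, 13.1 and 14.7 FPKM in shCtrl (log2 change -0.50, limma adjusted p = 0.0164). IDI1, the isomerase of that product, was at 52.0, 49.2 and 47.0 FPKM in shHOTAIR and 84.0, 79.4 and 81.2 FPKM in shCtrl, with tight repeats (log2 change -0.71, SE 0.0564, limma adjusted p = 0.00133). FDPS, the farnesyl diphosphate synthase and the most abundant synthesis gene, was at 204, 224 and 246 FPKM in shHOTAIR and 322, 267 and 285 FPKM in shCtrl. Its fall was the smallest of the 18 lower genes (log2 change -0.37, limma adjusted p = 0.0476). That call was lost without any 1 of the 6 libraries, with limma adjusted p of 0.0517 to 0.121, and the MVD call was lost without shHOTAIR 2, shCtrl 1 or shCtrl 3, with 0.0547 to 0.0598. GGPS1, which diverts farnesyl diphosphate to geranylgeranyl diphosphate for protein prenylation, was at 32.7, 31.0 and 31.6 FPKM in shHOTAIR and 36.0, 33.4 and 34.9 FPKM in shCtrl, a narrow gap that did not pass (log2 change -0.13, 95% interval -0.25 to 0.0033, limma adjusted p = 0.143).

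Of the 3 genes that lead from farnesyl diphosphate to lanosterol, FDFT1 and SQLE fell. FDFT1, the squalene synthase, was at 115, 143 and 129 FPKM in shHOTAIR and 227, 194 and 226 FPKM in shCtrl (log2 change -0.74, SE 0.107, limma adjusted p = 0.00712). SQLE, the oxygenase that acts on squalene and a known control point, was at 16.3, 18.4 and 17.7 FPKM in shHOTAIR and 28.4, 25.0 and 25.5 FPKM in shCtrl (log2 change -0.56, SE 0.075, limma adjusted p = 0.00547). Neither pair of groups overlapped. LSS, the cyclase that closes the lanosterol rings, was at 10.5, 13 and 12.6 FPKM in shHOTAIR and 12.9, 12.7 and 11.4 FPKM in shCtrl, and the groups overlapped (log2 change -0.037, 95% interval -0.28 to 0.21).

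The conversion of lanosterol to cholesterol held 6 lower genes of 9. CYP51A1, the lanosterol demethylase of the cytochrome P450 family, was at 57.5, 50.02 and 57.6 FPKM in shHOTAIR and 102, 93.3 and 94.9 FPKM in shCtrl (log2 change -0.80, limma adjusted p = 0.002). MSMO1, the methyl oxidase that starts the removal of later methyl groups from the ring, was at 45.2, 46.3 and 41.5 FPKM in shHOTAIR and 68.3, 67.1 and 68.9 FPKM in shCtrl (log2 change -0.61, limma adjusted p = 0.00195). SC5D, the desaturase near the end of the route, was at 26.1, 28.7 and 25.2 FPKM in shHOTAIR and 45.4, 45.6 and 42.9 FPKM in shCtrl (log2 change -0.72, limma adjusted p = 0.00189). In all 3 genes the highest shHOTAIR library stayed well below the lowest shCtrl library.

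DHCR7, the reductase that turns 7-dehydrocholesterol into cholesterol, had the largest fall among the synthesis genes. It was at 24.6, 46.2 and 30.6 FPKM in shHOTAIR and 78.8, 75.3 and 81.7 FPKM in shCtrl, so shHOTAIR 2 stood above its group while every shHOTAIR library was low. The shHOTAIR mean was 43.0% of the shCtrl mean (log2 change -1.24, SE 0.223, limma adjusted p = 0.0136). Its call was lost without shCtrl 3, with limma adjusted p = 0.0512 at a log2 change of -1.21. An antisense gene that overlaps it, AP002387.1, averaged 1.14 FPKM in shHOTAIR and 3.39 FPKM in shCtrl (log2 change -1.03, limma adjusted p = 0.0129), and fragments of these genes may be shared. HSD17B7, a keto reductase of the demethylation complex, was at 20.6, 24.4 and 21.3 FPKM in shHOTAIR and 39.5, 29.4 and 33.6 FPKM in shCtrl (log2 change -0.60, limma adjusted p = 0.0216). That call was lost without shHOTAIR 1, shHOTAIR 3 or shCtrl 3, with limma adjusted p of 0.0634 to 0.0681. Its pseudogene HSD17B7P2 on chromosome 10 averaged 0.771 FPKM in shHOTAIR and 1.39 FPKM in shCtrl.

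Of the pair of sterol C14 reductases, TM7SF2 fell and LBR did not pass. TM7SF2 was at 5.39, 8.01 and 5.15 FPKM in shHOTAIR and 12.8, 12.9 and 11.8 FPKM in shCtrl (log2 change -0.93, limma adjusted p = 0.0116). LBR, the lamin B receptor of the inner nuclear membrane that carries the same reductase activity, was at 128, 146 and 151 FPKM in shHOTAIR and 111, 130.2 and 111 FPKM in shCtrl, and did not pass (log2 change 0.27, 95% interval 0.027 to 0.50, limma adjusted p = 0.105). By mean FPKM, LBR stood at 141 and TM7SF2 at 6.18 in shHOTAIR, against 118 and 12.5 in shCtrl, so LBR was the more abundant of the 2 in both groups. TM7SF2 overlaps VPS51 on the same strand, which averaged 86.5 FPKM in shHOTAIR and 90.5 FPKM in shCtrl (limma adjusted p = 0.742), so part of its reads may not be its own. NSDHL, the sterol dehydrogenase that works with MSMO1, and EBP, the sterol isomerase, overlapped between groups. NSDHL was at 26.9, 33.4 and 32.1 FPKM in shHOTAIR and 32.5, 27.5 and 31.0 FPKM in shCtrl (95% interval of the log2 change -0.24 to 0.28). EBP was at 2.43, 2.32 and 3.31 FPKM in shHOTAIR and 2.58, 3.66 and 2.57 FPKM in shCtrl (95% interval -0.51 to 0.33).

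**Figure D2:**
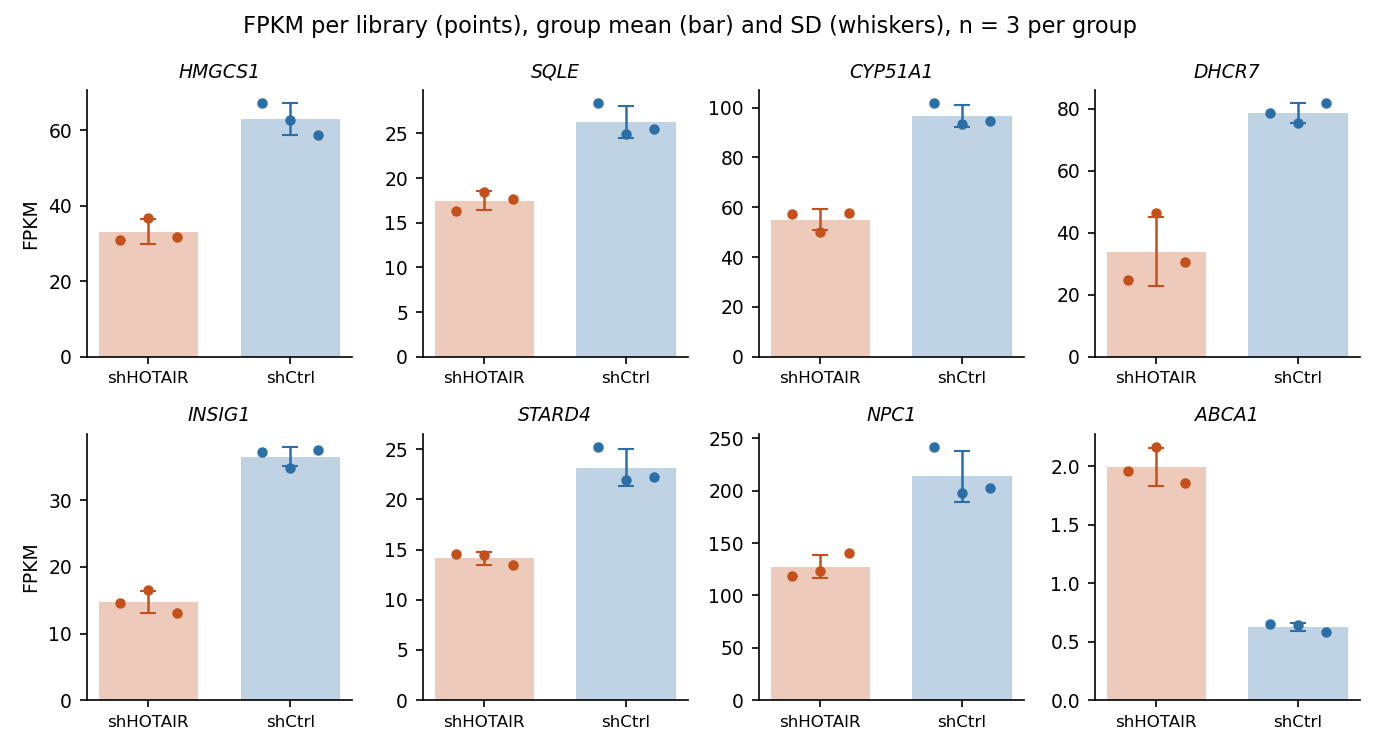
FPKM of 8 sterol genes on axes that start at 0, with shHOTAIR left of shCtrl, points for the 3 libraries of each group, bars for the mean and whiskers for the SD. In HMGCS1, SQLE, CYP51A1, DHCR7, INSIG1, STARD4 and NPC1 every shHOTAIR point lies below every shCtrl point, and in ABCA1 every shHOTAIR point lies above.

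Of the 4 sensing genes, INSIG1 passed the test. INSIG1, the sterol-dependent brake on SCAP and itself a well-known target of SREBP2, lies on chromosome 7 (155297776 to 155310235 on GRCh38, plus strand). It was at 14.5, 16.5 and 13.1 FPKM in shHOTAIR and 37.3, 34.9 and 37.6 FPKM in shCtrl. The shHOTAIR mean was 40.3% of the shCtrl mean, the largest fall of the 33 tested genes (log2 change -1.26, SE 0.0906, limma adjusted p = 0.0011). INSIG2, its relative that is not induced by SREBP2 in the same way, was at 31.6, 33.5 and 46.3 FPKM in shHOTAIR and 41.2, 33.9 and 36.4 FPKM in shCtrl, with overlapping groups (log2 change -0.018, 95% interval -0.42 to 0.38). The 95% intervals of the log2 changes of INSIG1 (-1.49 to -1.04) and INSIG2 did not overlap, while the difference between the genes was not tested.

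SREBF2, the gene of SREBP2, was at 55.6, 80.3 and 71.5 FPKM in shHOTAIR and 91.9, 87.0 and 97.3 FPKM in shCtrl. All 3 shHOTAIR values were lower, but the shHOTAIR repeats were spread and the gene did not pass (log2 change -0.42, 95% interval -0.77 to -0.074, limma adjusted p = 0.0844). SCAP, the escort, was at 35.2, 36.2 and 33.7 FPKM in shHOTAIR and 38.2, 34.9 and 34.8 FPKM in shCtrl (log2 change -0.036, 95% interval -0.18 to 0.11). Sterol control of SCAP and SREBP2 acts largely on the proteins, which mRNA levels do not show.

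The bases before the RefSeq start sites of these genes were searched for letters known from SREBP2 target promoters. The sterol regulatory element was written as TCACNCCA, with the longer form TCACNCCAC counted within it, and the NF-Y box, bound by a common partner of SREBP2, as CCAAT, on both strands over 250 bases before each start. Windows on GRCh38.p14 were at hand for 30 of the 34 genes, the others being ACAT2, FDFT1, SQLE and ABCG1. CCAAT was found in 22 of the 30 (73.3%), in 12 of the 15 lower genes with a window and in 10 of the other 15, against 42.4% of 9261 tested protein-coding genes with a window and 32.0% of all 35116 windows. TCACNCCA was found in MVK, MSMO1 and SREBF2, which is 10.0% of the 30, against 3.81% of the tested protein-coding genes and 3.20% of all windows. The longer form was found in SREBF2 alone, against 1.27% of the tested protein-coding genes and 0.883% of all windows. The shares describe letters, not binding, and no match says only that those letters are not in the window. The windows printed are the 3 with TCACNCCA and that of INSIG1, the gene that fell most. Each runs 5′ to 3′ along the plus strand of GRCh38.p14, with TCACNCCA and CCAAT of either strand in capitals. CCAAT on the opposite strand reads ATTGG.
INSIG1 (chr7:155297628-155297877, plus strand): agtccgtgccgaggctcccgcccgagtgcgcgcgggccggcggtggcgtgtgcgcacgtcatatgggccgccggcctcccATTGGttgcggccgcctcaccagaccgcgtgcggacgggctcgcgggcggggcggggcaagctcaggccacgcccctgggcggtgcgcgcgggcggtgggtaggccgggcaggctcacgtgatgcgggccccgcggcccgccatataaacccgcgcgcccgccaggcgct
MSMO1 (chr4:165327419-165327668, plus strand): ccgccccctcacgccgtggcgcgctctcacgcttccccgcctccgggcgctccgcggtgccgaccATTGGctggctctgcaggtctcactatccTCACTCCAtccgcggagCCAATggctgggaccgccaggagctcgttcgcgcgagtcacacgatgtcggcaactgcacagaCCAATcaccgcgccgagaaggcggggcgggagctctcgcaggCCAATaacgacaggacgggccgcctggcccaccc
MVK (chr12:109573544-109573793, plus strand): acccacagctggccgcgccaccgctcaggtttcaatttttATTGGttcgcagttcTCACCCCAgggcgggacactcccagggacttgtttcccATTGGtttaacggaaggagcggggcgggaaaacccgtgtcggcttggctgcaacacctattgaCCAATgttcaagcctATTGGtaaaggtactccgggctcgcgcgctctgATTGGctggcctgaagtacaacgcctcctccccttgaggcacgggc
SREBF2 (chr22:41832855-41833104, plus strand): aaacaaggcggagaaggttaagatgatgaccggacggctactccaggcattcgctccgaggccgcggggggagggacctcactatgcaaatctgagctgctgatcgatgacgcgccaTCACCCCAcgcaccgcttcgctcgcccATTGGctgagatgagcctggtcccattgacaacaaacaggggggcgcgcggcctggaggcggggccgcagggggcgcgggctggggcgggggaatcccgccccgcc

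In INSIG1 the single box starts 170 bases before the RefSeq start. MSMO1 and MVK hold 4 and 5 CCAAT boxes, and their TCACNCCA starts 156 and 195 bases before the start. In SREBF2 it starts 133 bases before the start, ahead of 1 CCAAT box.

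Genes that bring in and move cholesterol split as well, with 2 of 5 lower. NPC1, the lysosomal membrane protein that exports cholesterol taken up in lipoproteins, was at 119, 124 and 140.4 FPKM in shHOTAIR and 242, 198 and 202 FPKM in shCtrl (log2 change -0.74, SE 0.106, limma adjusted p = 0.00679). Its soluble partner NPC2, which hands cholesterol to it, was at 123, 134 and 129 FPKM in shHOTAIR and 124, 129.8 and 135 FPKM in shCtrl (log2 change -0.013, 95% interval -0.16 to 0.13). So NPC1 fell without overlap between groups, and NPC2 overlapped. ISCA2, on the strand opposite NPC2, averaged 27.3 FPKM in shHOTAIR and 19.0 FPKM in shCtrl. RMC1, which overlaps NPC1 on the opposite strand, averaged 55.1 FPKM in shHOTAIR and 78.2 FPKM in shCtrl (limma adjusted p = 0.0132), and fragments of the 2 genes may be shared. STARD4, a soluble sterol carrier and known SREBP2 target, was at 14.6, 14.4 and 13.4 FPKM in shHOTAIR and 25.3, 21.9 and 22.3 FPKM in shCtrl (log2 change -0.67, SE 0.0739, limma adjusted p = 0.00309). MYLIP, a ubiquitin ligase that removes lipoprotein receptors and is induced by liver X receptors, was at 5.34, 6.04 and 5.60 FPKM in shHOTAIR and 5.38, 5.34 and 5.81 FPKM in shCtrl, with overlapping groups (95% interval of the log2 change -0.15 to 0.22). LIPA, the lysosomal acid lipase that frees cholesterol from its esters, was at 39.0, 40.9 and 35.6 FPKM in shHOTAIR and 41.9, 44.2 and 45.6 FPKM in shCtrl. The LIPA groups did not overlap, yet the gene did not pass (log2 change -0.19, 95% interval -0.36 to -0.014, limma adjusted p = 0.112). Its annotated span holds other genes, among them AL353751.1, which averaged 14.2 FPKM in shHOTAIR and 3.31 FPKM in shCtrl.

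The efflux transporter ABCA1 was the only tested gene of the 33 that was higher. ABCA1, which loads cellular cholesterol onto apolipoproteins and is a classic target of liver X receptors, lies on chromosome 9 (104781002 to 104928237 on GRCh38, minus strand). It was at 1.95, 2.17 and 1.85 FPKM in shHOTAIR and 0.655, 0.639 and 0.587 FPKM in shCtrl. The mean was 3.18 times that of shCtrl, while the added 1 holds the log2 change to 0.88 (SE 0.139, limma adjusted p = 0.00926). It was low in both groups and its shCtrl mean was under the filter, so a gene of this kind could be tested only by being higher. ABCG1, the partner efflux transporter, was listed at 0.0305, 0.0623 and 0.0329 FPKM in shHOTAIR and at 0, 0 and 0.0578 FPKM in shCtrl, too low to test.

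The 2 liver X receptors differed in their calls. NR1H2, which encodes the widely expressed liver X receptor beta, was at 14.2, 16.2 and 17.2 FPKM in shHOTAIR and 23.8, 24.5 and 23.2 FPKM in shCtrl, and fell (log2 change -0.56, limma adjusted p = 0.00636). NR1H3, the liver X receptor alpha, was at 4.59, 4.90 and 5.69 FPKM in shHOTAIR and 4.11, 4.36 and 4.14 FPKM in shCtrl, higher in each shHOTAIR library without passing (log2 change 0.22, 95% interval -0.014 to 0.45, limma adjusted p = 0.153). NR1H2 was the more abundant of the 2 receptors in both groups. SOAT1, which esterifies cholesterol for storage, was at 40.0, 40.8 and 38.7 FPKM in shHOTAIR and 35.1, 38.0 and 38.7 FPKM in shCtrl (log2 change 0.095, 95% interval -0.046 to 0.24).

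Chromosomal position was set beside these values. On chromosome 10, 298 of 443 tested protein-coding genes were lower and 12 were higher, with a median log2 change of -0.52, and IDI1 (chromosome 10, 1039152 to 1049170 on GRCh38, minus strand) and LIPA (chromosome 10, 89213569 to 89414557, minus strand) lie there. The 50 nearest tested protein-coding genes had a median log2 change of -0.68 around IDI1, with 36 of them lower, and -0.46 around LIPA, with 31 lower. To set each gene against its region, the median deviation of such neighbours from their own means was subtracted in every library, a setting chosen after seeing the data. The log2 change of IDI1 was then -0.028 (limma adjusted p = 0.8), so its fall was about that of its neighbours. LIPA then had a log2 change of 0.25 and did not pass (limma adjusted p = 0.102). VIM, given above as a marker of the line, also lies on chromosome 10, among neighbours with a median log2 change of -0.71. Its log2 change was -1.27, and relative to the neighbours' change it was -0.52 (limma adjusted p = 0.00932). The cause of the chromosome-wide shift was not tested.

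Some genes of the pathway lie in segments that were higher. Around NSDHL on chromosome X the neighbours had a median log2 change of 0.60, around LSS on chromosome 21 0.39 and around MSMO1 on chromosome 4 0.36. Relative to the neighbours' change, the log2 change was -0.60 for NSDHL (limma adjusted p = 0.00916), -0.43 for LSS (0.0348) and -0.95 for MSMO1 (0.00116), so NSDHL and LSS passed as lower. ACAT2 (log2 change -0.40, limma adjusted p = 0.0678) and MVK (-0.59, limma adjusted p = 0.0742) kept most of their size but no longer passed, unlike IDI1, whose change was near 0. In all, 17 genes were then lower and 1, ABCA1, was higher, against 7.32% lower and 8.26% higher among 15359 genes, and 15 of the 17 were among the 18 lower without centring. INSIG1, whose neighbours had a median of -0.039, still fell (log2 change -1.20, limma adjusted p = 0.00124).

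Centring was also done on the neighbours' median level in each library, which need not follow their median change. By that measure 16 genes were lower and 2 higher, against 6.43% lower and 7.59% higher among the 15359 genes, and 14 of the 16 were among the 18. FDFT1 (log2 change -0.46, limma adjusted p = 0.0798) no longer passed, nor did ACAT2 (-0.41, 0.0662), MVK (-0.58, 0.0937) and IDI1 (-0.093, 0.527), while LBR passed as higher (0.35, 0.0492). Centred on the neighbours' change, FDFT1 passed (-0.65, limma adjusted p = 0.0163) and LBR did not (0.35, 0.0653).

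**Figure D3:**
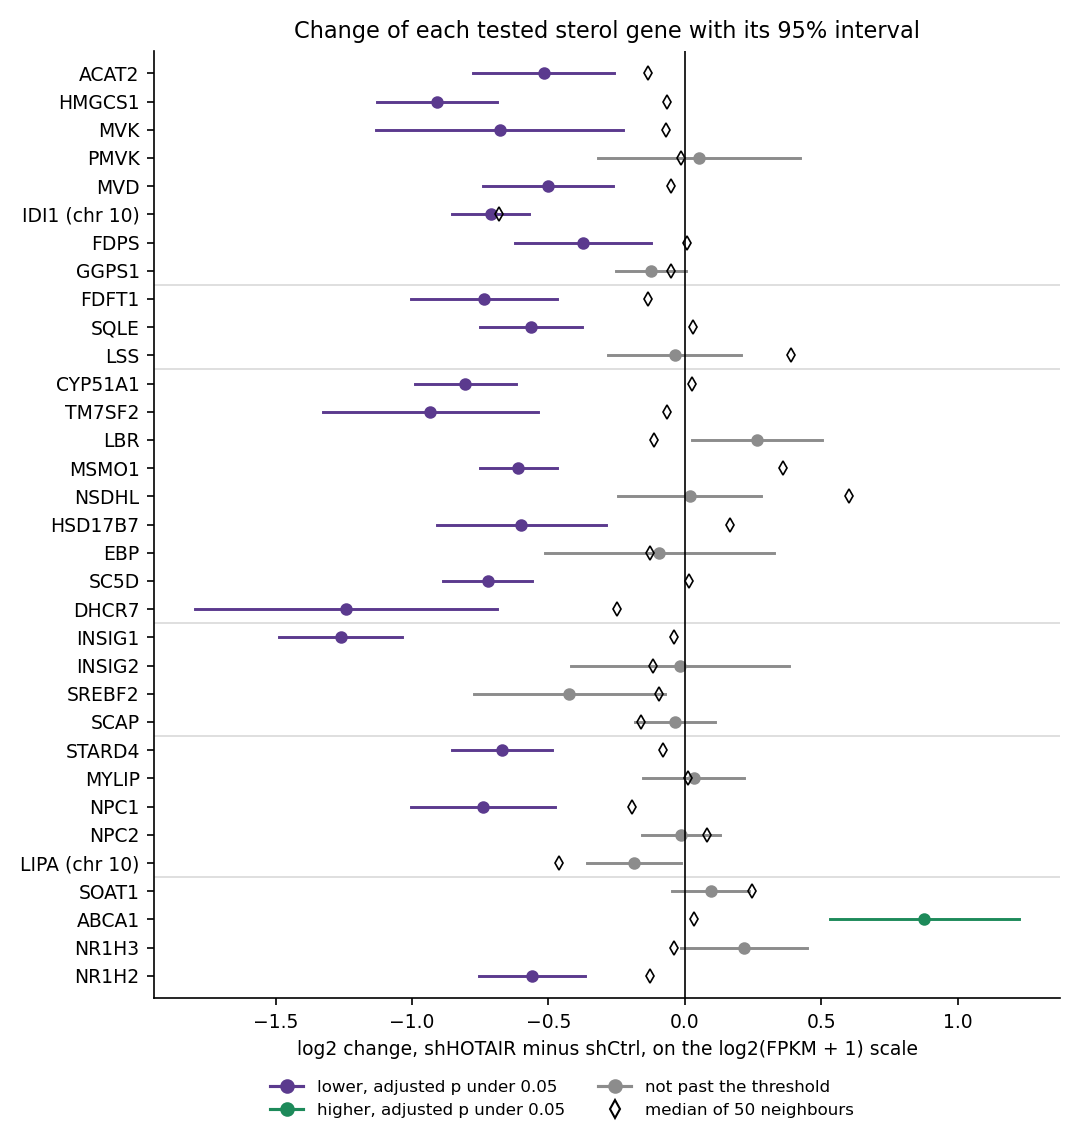
Log2 change of the 33 tested sterol genes, shHOTAIR minus shCtrl on the log2(FPKM + 1) scale, with 95% intervals from limma, in pathway order from top to bottom, and diamonds at the median change of the 50 nearest tested protein-coding genes. For IDI1 on chromosome 10 the diamond lies on the point, while for INSIG1, CYP51A1 and DHCR7 the point lies far below it and for ABCA1 far above it.

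Libraries of one group also differed in the level of the 18 lower genes. Within shHOTAIR, library 2 held the highest value in 11 of the 18, library 3 in 5 and library 1 in 2, and the median deviation from the group mean was 0.089 in library 2, -0.048 in library 3 and -0.096 in library 1 on the log2 scale. Within shCtrl, library 1 was highest in 9, library 3 in 6 and library 2 in 3, with median deviations of 0.042, -0.019 and -0.063. The median log2 change of the same 18 genes between the groups was -0.70. They were chosen for being called lower, which favours a large change and a small spread. For all 33 tested genes the median was -0.50. Without 1 library in turn, 12 of the 18 passed each time: HMGCS1, IDI1, FDFT1, SQLE, CYP51A1, TM7SF2, MSMO1, SC5D, INSIG1, STARD4, NPC1 and NR1H2. Over all genes tested, 1221 to 1616 were lower without 1 library, against 1968 with all libraries. How many of the 1968 passed each time was not counted, so this stability cannot be called particular to the sterol genes.

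Another list, called the other sterol genes, was written with earlier results of these data known. Most of its genes handle sterols, but some belong to side branches such as coenzyme Q synthesis. Of 47 listed, 37 were tested, of which 7 were higher and 3 lower, against 11.5% higher and 12.4% lower over all genes tested. The groups did not overlap in 11 that were higher and 6 that were lower, against 19.9% and 23.2% over all genes, and the median log2 change was 0.084. Among the higher genes with the smallest p were CAV1, the coat protein of caveolae (218 ± 11 FPKM in shHOTAIR and 116 ± 2.28 FPKM in shCtrl, SD, n = 3 each, log2 change 0.90, limma adjusted p = 0.000725), NCEH1, a hydrolase of cholesterol esters, and COQ2, an enzyme of coenzyme Q synthesis. NCEH1 averaged 73.6 ± 3.23 FPKM in shHOTAIR and 41.2 ± 2.23 FPKM in shCtrl (log2 change 0.82, limma adjusted p = 0.00123). COQ2 had a log2 change of 0.44 among neighbours with a median of 0.39 on chromosome 4, and relative to their change it was 0.036 (limma adjusted p = 0.803).

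The 3 lower genes of that list were PDSS1, which makes the side chain of coenzyme Q, ERLIN1, an endoplasmic reticulum protein that takes part in degrading sterol enzymes, and STARD3, a late endosomal sterol carrier. PDSS1 (log2 change -0.42) and ERLIN1 (-0.26) lie on chromosome 10, and relative to the neighbours' change they were 0.24 (limma adjusted p = 0.0513) and 0.30 (0.0394), so both turned in direction and none of the 3 then passed as lower (STARD3 at -0.30, limma adjusted p = 0.0651). Leaving out any library other than shHOTAIR 3 ended the ERLIN1 call, with limma adjusted p of 0.0815 to 0.102, and STARD3 (-0.33, limma adjusted p = 0.0443) lost its call without any library but shCtrl 3, with 0.0764 to 0.128. SREBF1, the gene of the related factor SREBP1 that favours fatty acid synthesis, was at 38.6, 51.1 and 39.0 FPKM in shHOTAIR and 40.6, 46.2 and 37.8 FPKM in shCtrl, and did not pass (log2 change 0.037, 95% interval -0.30 to 0.37). It was named after its values were seen.

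**Figure D4:**
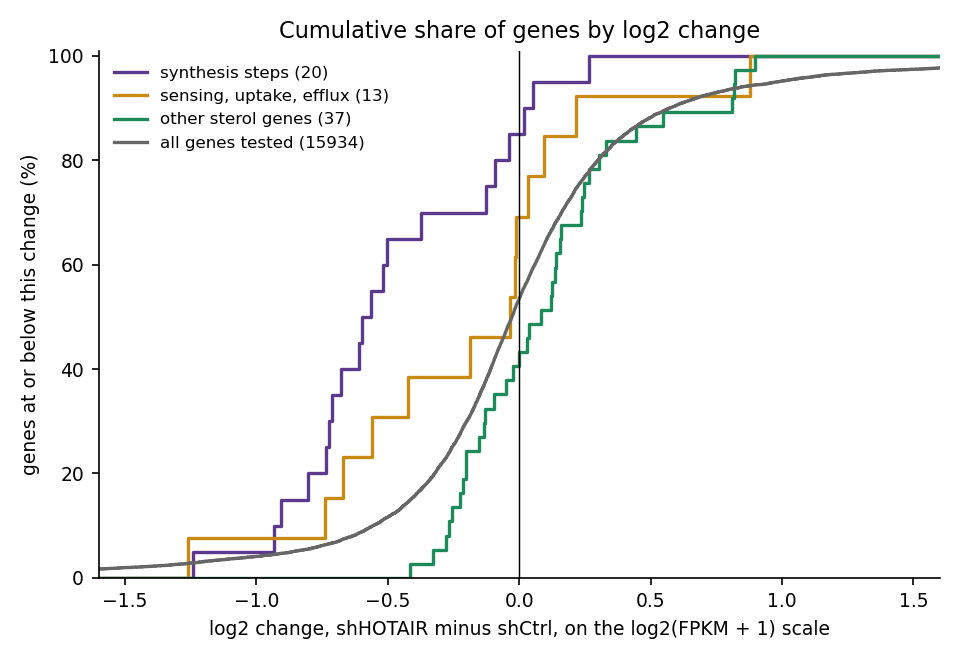
Cumulative share of genes, in percent on the vertical axis, at or below each log2 change on the horizontal axis, for 20 synthesis genes, 13 tested genes of sensing, uptake, esterification and efflux, 37 other sterol genes and all 15934 genes tested. Over most of its range the curve of the synthesis genes lies left of that of all genes, and the curve of the other sterol genes stays near or right of it.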

How the data were processed

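The authors deposited 1 table of FPKM values per gene and library, with 65198 gene rows and 6 libraries. TopHat2 2.0.13, DESeq and GRCh38 are named in the submitters' processing notes without their roles. The program that made the FPKM values, its annotation and its strand setting were not stated in the labels or in the table. Ensembl identifiers were matched to GENCODE 29 (56807 rows matched, 8391 did not). Fragment numbers per library are unknown, so no counting interval is given.

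The 15934 genes whose average across libraries reached 1 FPKM were fitted on log2(FPKM + 1) with limma 3.58.1 in R 4.3.3 (intensity trend, Benjamini-Hochberg adjustment, threshold 0.05). A fold on this scale understates the change of low genes. Regional centring subtracted, in each library, the median level of the 50 nearest tested protein-coding genes before the fit. A form chosen after seeing the data subtracted the median of their deviations from their own means, which follows their change. Alternatives were other pseudocounts, filters, scalings and moderation, a replicate block and leaving out each library. The fit was tested on simulated data. All 34 genes are named, and of the other sterol genes up to 4 called in each direction with the smallest p, of which 1 is not reported here. The genes and lists were chosen with earlier results of these data known. Promoter windows come from RefSeq (GRCh38.p14).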

Additional observations from a re-analysis of the deposited data

How the results depend on the processing

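Across the 18 alternatives, 12 to 18 of the sterol genes were lower, and 10 of the 18 were lower under every one. The matching share of all lower genes was not counted. Over all genes, 3797 were called, against 1740 with the replicate block, 2154 after centring on the neighbours' level, 2393 after centring on their change and 2459 to 3131 without 1 library. Same-numbered libraries did not deviate together (correlations -0.0221, 0.00696 and -0.0307), so the replicate block has no basis in pairing, and with it 12 sterol genes were lower and 0 higher. By limma, 0 were also higher at a minimum mean of 5 FPKM, which removes ABCA1, and 2 were higher after level centring. Of the other sterol genes, 7 were higher, against 3 with the block and 11 with the protein-coding sum scaling, which was chosen after seeing the data, as was centring on change. Of the same list 3 were lower, against 0 with the block or change centring, 1 each with no filter, limma without trend, level centring or that scaling, and 1 to 3 without 1 library. Level centring turned the direction of GGPS1 (log2 change 0.0026), NSDHL (-0.50), EBP (0.044), INSIG2 (0.30), SCAP (0.061), LIPA (0.40), SOAT1 (-0.24), ERLIN1 (0.32) and PDSS1 (0.42). Change centring turned NSDHL (-0.60), EBP (0.034), INSIG2 (0.082), SCAP (0.12), LIPA (0.25), SOAT1 (-0.11), ERLIN1 (0.30) and PDSS1 (0.24). Median-of-ratios rescaling turned INSIG2 (0.0078) and NPC2 (0.013), quantile normalization INSIG2 (0.014), and the protein-coding sum LSS (0.030), INSIG2 (0.053), SCAP (0.035) and NPC2 (0.060). Without 1 library, log2 changes ranged over both signs for PMVK (-0.025 to 0.20), LSS (-0.092 to 0.052), NSDHL (-0.049 to 0.11), EBP (-0.21 to 0.034), INSIG2 (-0.18 to 0.086), SCAP (-0.059 to 0.0070), MYLIP (-0.0076 to 0.068) and NPC2 (-0.043 to 0.020). Apart from NSDHL under both centrings, PDSS1 under level centring and ERLIN1 under change centring, none of the values that turned passed the threshold. The causes were not tested. FPKM without counts leaves the precision of low genes such as ABCG1 unknown.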
